A study of Bos taurus with 2 samples.

Results

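The genes described here are 9 neural progenitor identity genes, SOX1, SOX2, SOX21, PAX3, PAX6, ZIC1, RFX4, FABP7 and NES, chosen by symbol, with no threshold on their values. All 9 were among the 17846 genes of the deposited count table. They were followed by detection, by co-detection within barcodes and by level across groups of barcodes in 2 single-cell libraries of day 25 bovine embryos. Every embryo was a chimera that had received bovine embryonic stem cells (bESC), and both libraries, replicate 1 and replicate 2, belong to that 1 group, so no embryo without bESC was compared. Cells were freed with papain, passed through a sorter and captured with 10x Genomics 3′ v3.1 chemistry. The sources used here do not give the sort gate, the number of embryos or the origin of each cell. Nothing in the labels ties the 2 libraries to separate embryos. A shift of a whole library was taken out by a library term in the fits. The p-values therefore measure only how far group differences varied between these 2 libraries, with that spread shared over groups and genes. It may be technical, and it is not known to be a spread between embryos.

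Neural progenitors line the neural tube, divide, and give rise to neurons that leave this layer. SOX1 and SOX2 are SOXB1 transcription factors that hold cells in the progenitor state in chick and mouse, and SOX21 is a SOXB2 factor that opposes them in chick. PAX3, PAX6 and ZIC1 carry position in the neural tube: in mouse and chick PAX3 and ZIC1 mark its dorsal side, PAX6 its intermediate part, and the ventral floor plate, a source of Sonic hedgehog, lacks PAX3 and PAX6. RFX4 is a winged-helix factor needed for the dorsal midline of the mouse brain. FABP7, also called brain lipid-binding protein, is a fatty acid carrier of radial glia, and NES encodes nestin, an intermediate filament protein of dividing neural cells.

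Replicate 1 held 11182089 UMI (barcoded transcript molecules) and replicate 2 held 15427708. After filters 1843 and 2316 barcodes were kept, with a median of 5232 and 5974 UMI, and 6 barcode sequences occurred in both libraries. Barcodes were sorted into groups by markers that are none of the 9 genes. Progenitor barcodes (655 and 729) had at least 3 of 10 progenitor markers, such as SOX9, HES5 and NOTCH1, and at least 2 more than of any other list. The same rule gave 320 and 337 neuron barcodes (ELAVL3, DCX, STMN2 and others), 55 and 129 collagen barcodes (COL1A1, LUM and others), 9 and 20 erythroid barcodes and 9 and 13 trophoblast barcodes. A further 184 and 211 barcodes formed the progenitor-and-neuron group. These had at least 3 markers of each of the 2 lists, in numbers that differed by under 2, and at least 2 more than of any other list. Barcodes with 3 or more of each but a larger margin stayed in the progenitor or neuron group. Another 610 and 875 joined no group. The groups rest on the balance of 2 lists and not on absence: the progenitor markers summed to 3590 and 3385 UMI per 1000000 UMI (CPM) in progenitor barcodes, against 2894 and 2756 CPM in neuron barcodes, where all 10 had a UMI. Neuron markers summed to 431.8 and 439 CPM in progenitor barcodes, against 5635 and 7025 CPM in neuron barcodes. Clusters found in 1 library only held 37 of the collagen barcodes of replicate 2 and 35 of the neuron barcodes of replicate 1. Fewer cells with a transcript and less of it per cell cannot be told apart in summed counts, so shares of barcodes are given as well.

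Of the 9 genes, 7 were higher in progenitor than in neuron barcodes in the quasi-likelihood test of edgeR, with p adjusted over all genes tested (Benjamini-Hochberg), and PAX6 and FABP7 were lower. In this comparison 54.6% of all 12294 genes tested were called, 27.4% higher and 27.2% lower, so a call by itself sets no gene apart. The median log2 fold change was 1.13 over the 9 genes and 0.01 over all genes tested.

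SOX2 stood at 324 and 355 CPM in progenitor barcodes of replicates 1 and 2, against 115 and 113 CPM in neuron barcodes. The libraries lay close together within each group and the groups did not overlap. The log2 fold change was 1.36 ± 0.12 (SE, adjusted p = 3.1e-12). SOX1 had 56.5 and 60.04 CPM in progenitor barcodes and 32.3 and 32.6 CPM in neuron barcodes, without overlap, a log2 fold change of 0.63 ± 0.18 (adjusted p = 0.0028). SOX21, the SOXB2 factor, had 25.1 and 20.0 CPM in progenitor barcodes and 8.18 and 10.2 CPM in neuron barcodes, a log2 fold change of 1.05 ± 0.28 (adjusted p = 0.0020). All 3 SOX genes were thus higher in the progenitor barcodes of both libraries, with the smallest fold for SOX1.

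The position genes split. PAX3 had 189.9 and 176 CPM in progenitor barcodes and 54.4 and 40.8 CPM in neuron barcodes, a log2 fold change of 1.74 ± 0.19 (adjusted p = 1.0e-06). ZIC1, a zinc finger factor of the dorsal neural tube, had 41.4 and 44.9 CPM in progenitor barcodes and 16.8 and 17.1 CPM in neuron barcodes, a log2 fold change of 1.13 ± 0.23 (adjusted p = 0.00012). Neither gene's groups overlapped. PAX6 had 149 and 124 CPM in progenitor barcodes and 132 and 160.3 CPM in neuron barcodes, so that its groups overlapped: replicate 1 was higher in progenitors and replicate 2 in neurons. Its fitted log2 fold change was -0.33 ± 0.14 (adjusted p = 0.047). That call was lost when total UMI was the only scaling (-0.11, adjusted p = 0.53), with DESeq2 (-0.37, adjusted p = 0.28), with 4 markers needed (-0.29, adjusted p = 0.13), with thinned barcodes (-0.38, adjusted p = 0.10) and with no replicate block (-0.32, adjusted p = 0.13). The direction stayed negative in each of these fits. From replicate 1 alone the log2 difference was -0.025, and from replicate 2 alone -0.55.

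RFX4 had 436 and 429.7 CPM in progenitor barcodes and 138 and 140.3 CPM in neuron barcodes, a log2 fold change of 1.43 ± 0.17 (adjusted p = 1.7e-06). NES had 850.2 and 893 CPM in progenitor barcodes and 255 and 238 CPM in neuron barcodes, a log2 fold change of 1.61 ± 0.13 (adjusted p = 2.9e-13). Both were about as far apart between the groups in one library as in the other. FABP7 went the other way, with 59.1 and 56.2 CPM in progenitor barcodes and 99.6 and 148 CPM in neuron barcodes, a log2 fold change of -1.31 ± 0.18 (adjusted p = 2.7e-06). Its neuron level was lower in replicate 1 than in replicate 2, and both were above the progenitor level. With DESeq2, 4 of the 9 genes were called in this comparison (SOX2, RFX4 and NES higher, FABP7 lower), and SOX1, SOX21, PAX3 and ZIC1 kept their direction with adjusted p between 0.060 and 0.19.

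**Figure D1:**
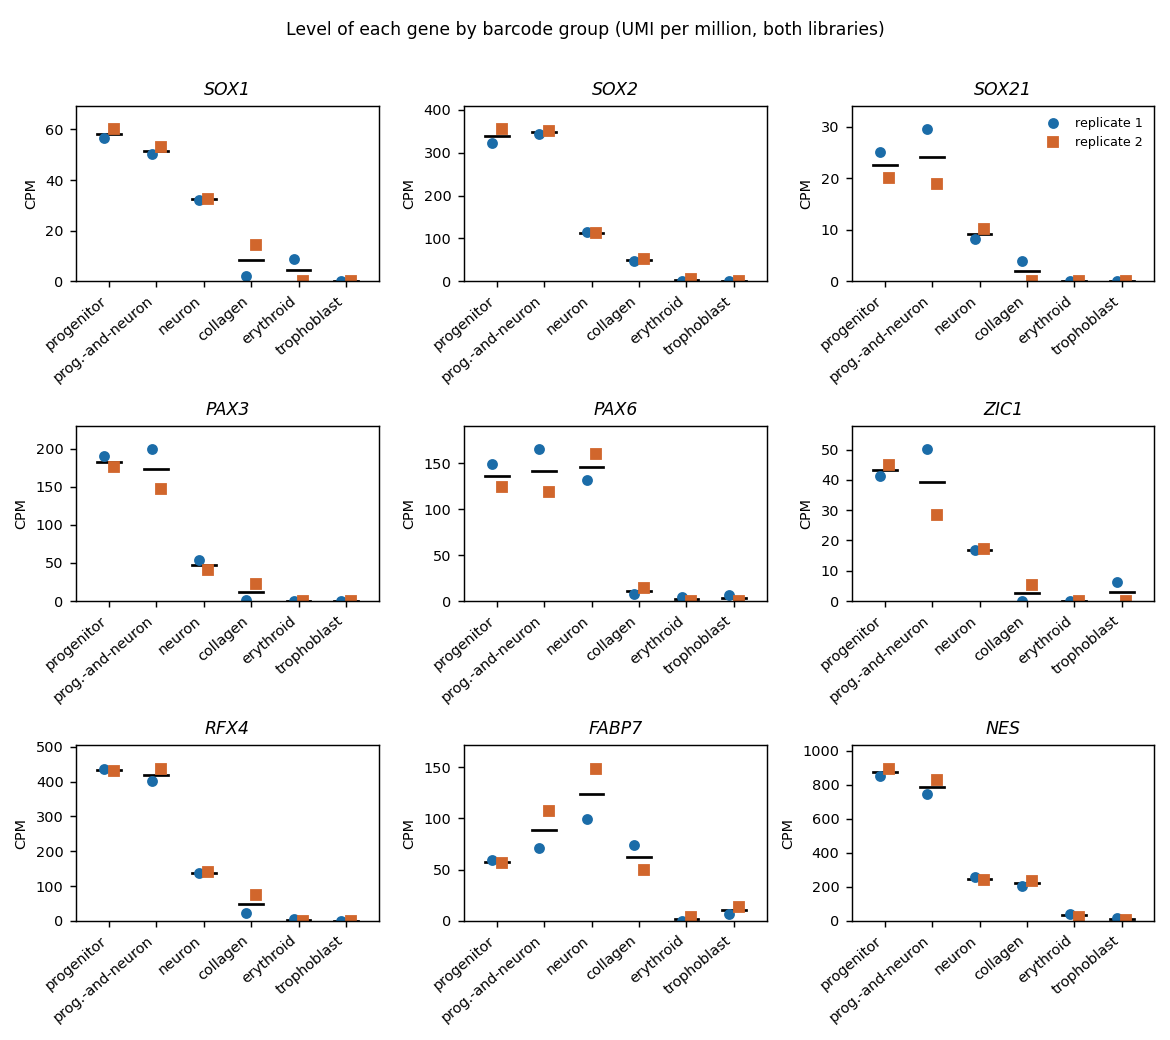
Level of each of the 9 genes in 6 groups of barcodes, as CPM summed over a group (y axis, linear, from 0), with circles for replicate 1, squares for replicate 2 and a black line for their mean. SOX2, RFX4 and NES sit far higher in progenitor and progenitor-and-neuron barcodes than in neuron barcodes, PAX6 is level across these groups, FABP7 is highest in neuron barcodes, and erythroid and trophoblast barcodes lie near 0.

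Against collagen barcodes 8 of the 9 genes were higher in progenitor barcodes and FABP7 was called lower. In this comparison 53.1% of all genes tested were called, 26.7% higher and 26.4% lower. The collagen group was set by mesenchymal markers, but it also held plasma protein transcripts. Markers of a plasma protein list (3 of 8 seen, with AFP and ALB at 0) summed to 13101 and 13406 CPM there. In progenitor barcodes the same list summed to 127 and 178 CPM. The part of that list in the fitted differences was not tested. PAX3 had 189.9 and 176 CPM in progenitor barcodes and 2.00 and 21.8 CPM in collagen barcodes, a log2 fold change of 2.83 ± 0.33 (adjusted p = 1.8e-06). PAX6 had 149 and 124 CPM in progenitor barcodes and 8.002 and 14.5 CPM in collagen barcodes, a log2 fold change of 2.73 ± 0.30 (adjusted p = 3.0e-09). The collagen levels of replicate 2 hold the cluster of that library alone. Without it PAX3 had 3.099 CPM, SOX1 3.099 CPM, SOX2 36.2 CPM, RFX4 31.0 CPM and NES 155 CPM in its collagen barcodes, in place of 21.8, 14.5, 51.7, 74.3 and 234 CPM, and all 9 genes kept their call. Single libraries differed here: the log2 differences from replicates 1 and 2 alone were 5.56 and 2.36 for PAX3, 3.82 and 1.39 for SOX1, 5.41 and 2.30 for ZIC1, 3.66 and 1.90 for RFX4, and 1.88 and 4.47 for SOX21. ZIC1 had 0 UMI in the collagen barcodes of replicate 1 and SOX21 had 0 UMI in those of replicate 2, so these single-library values depend on the count added before the logarithm. SOX2 and NES were not absent from collagen barcodes: SOX2 stood at 48.0 and 51.7 CPM there and NES at 206 and 234 CPM, where progenitor markers summed to 592 and 708 CPM. The part of other cells' RNA in these levels was not tested.

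The call for FABP7 against collagen barcodes did not hold under 4 alternatives, total UMI scaling among them. FABP7 had 59.1 and 56.2 CPM in progenitor barcodes and 74.0 and 49.9 CPM in collagen barcodes, so the groups overlapped. The fitted log2 fold change was -0.67 ± 0.26 (adjusted p = 0.034) with TMM scaling, and 0.018 (adjusted p = 0.95) with total UMI as the only scaling. TMM sets the bulk of genes level between groups. With total UMI alone the median log2 fold change over all genes was 0.80 against collagen barcodes, in place of 0.11, and 0.23 against neuron barcodes, in place of 0.01. The share of called genes that were higher then was 78.3% against collagen barcodes, in place of 50.3%, and 64.9% against neuron barcodes, in place of 50.2%. The call was also lost with DESeq2 (-0.80, adjusted p = 0.057), with 4 markers needed (-0.51, adjusted p = 0.0998) and with thinned barcodes (-0.18, adjusted p = 0.81). From replicates 1 and 2 alone the log2 difference of FABP7 was -0.93 and -0.44. The calls of the other 8 genes against collagen barcodes held under both scalings.

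Between progenitor and progenitor-and-neuron barcodes, FABP7 alone was called, lower in progenitor barcodes, in a comparison with 6.6% of all genes called, 1.74% higher and 4.86% lower. It had 59.1 and 56.2 CPM in progenitor barcodes and 70.9 and 107 CPM in progenitor-and-neuron barcodes, a log2 fold change of -0.73 ± 0.19 (adjusted p = 0.028). That call was lost with DESeq2, with no replicate block, with 2 markers needed and with thinned barcodes, and the log2 difference was -0.30 from replicate 1 alone and -1.02 from replicate 2 alone. With total UMI as the only scaling 63.8% of called genes were higher, in place of 26.4%, and the median log2 fold change over all genes was 0.13 in place of 0.03. SOX2 had 324 and 355 CPM in progenitor barcodes and 345 and 351 CPM in progenitor-and-neuron barcodes, which overlapped. NES had 850.2 and 893 CPM in progenitor barcodes and 745 and 826 CPM in progenitor-and-neuron barcodes, without overlap, and was not called. A p that misses the threshold does not show that the other 8 genes were equal: their fitted log2 differences ran from -0.18 to 0.08, with SE between 0.11 and 0.26.

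Barcodes of the progenitor, progenitor-and-neuron and neuron groups and of no group were also split by neuron markers. Each was placed by how many of the 10 had a UMI, whatever its progenitor markers. The same list had set the groups, so these steps are no separate support for the group differences. NES stood at 857 and 782 CPM in barcodes with 0 neuron markers, 768 and 772 CPM with 4, 326 and 479 CPM with 6, and 229 and 115 CPM with 9. SOX2 stood at 201 and 234 CPM with 0, 342 and 350.5 CPM with 4, 209 and 245 CPM with 6, and 41.4 and 44.8 CPM with 9. In both libraries NES was high up to 4 neuron markers, SOX2 was highest in the middle, and both were lowest of the levels named at 9. FABP7 stood at 32.1 and 31.2 CPM with 0 neuron markers, 109.8 and 126 CPM with 4, and 134 and 147 CPM with 9. Its level was thus already higher at 4 neuron markers, where NES and SOX2 were still high. PAX6 followed neither course, with 127 and 126 CPM at 0 markers, 119 and 86.8 CPM at 4, and 205 and 179 CPM at 9. These steps are a description with no test. Depth moved with them, with a median of 3316 and 3006 UMI at 0 markers and 7014.5 and 8138.5 at 4, and its part was not tested.

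**Figure D2:**
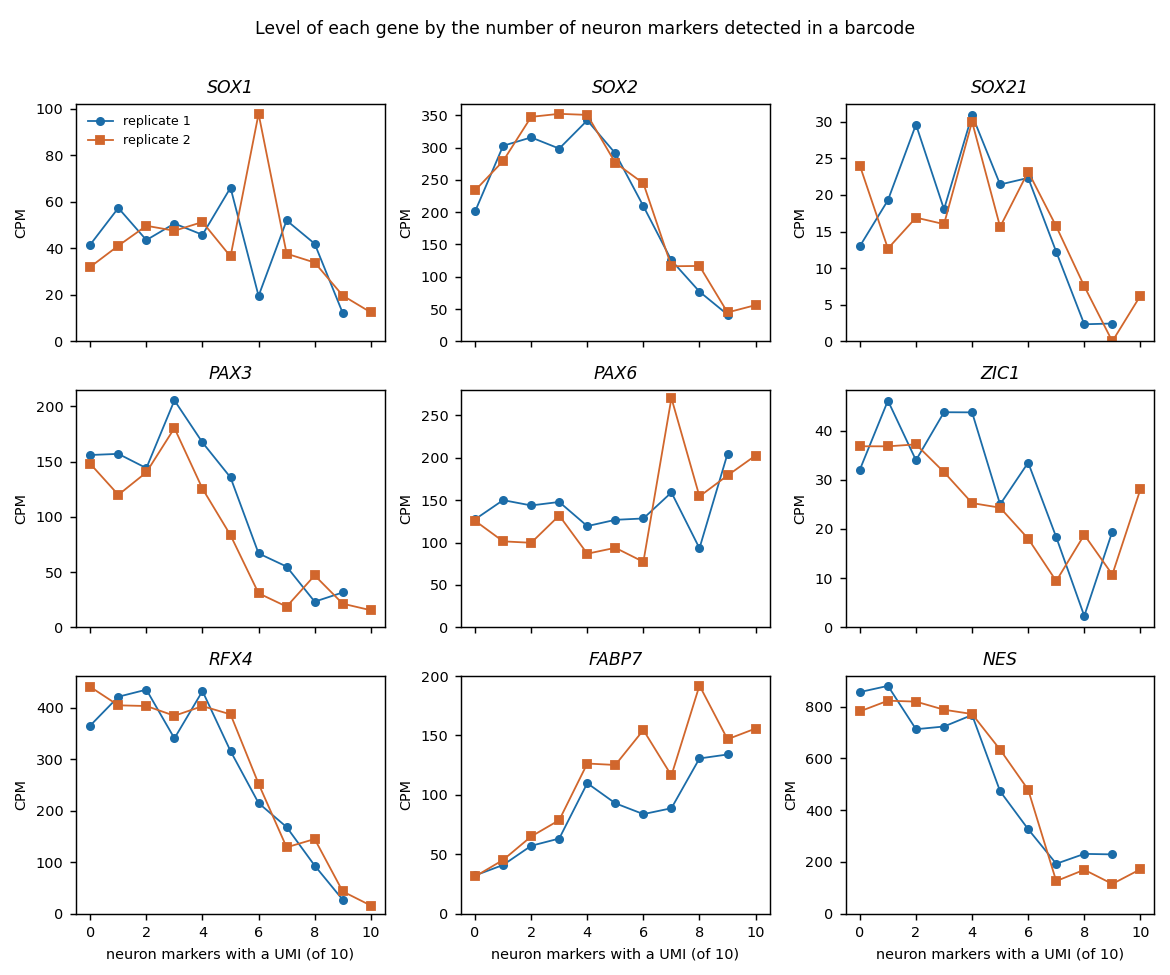
Level of each gene (CPM, y axis) by the number of neuron markers with a UMI in a barcode (x axis, of 10), with blue circles for replicate 1 and orange squares for replicate 2. SOX2, PAX3, RFX4 and NES are lower at 9 markers than at 4 in both libraries, and FABP7 is higher at 4 and 9 markers than at 0. PAX6 is higher at 9 markers than at 0 or 4 in both libraries, without a steady rise.

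Within progenitor barcodes the position genes separated the floor plate. Floor plate progenitors (63 and 71 barcodes) had at least 3 of 8 markers such as SHH, NTN1 and FOXA2, and plain progenitors (164 and 162 barcodes) at most 1 marker of any subgroup. Of the 9 genes SOX1, PAX3, PAX6 and ZIC1 were lower in floor plate than in plain progenitors and FABP7 was higher, in a comparison where 24.5% of all 9801 genes tested were called, 13.8% higher and 10.7% lower. SOX2, SOX21, RFX4 and NES did not pass. The median log2 fold change was -0.67 over the 9 genes and -0.09 over all genes tested. With total UMI as the only scaling the median over all genes was -0.36, and 28.1% of called genes were higher in place of 56.5%.

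PAX3 had 2.07 and 6.85 CPM in floor plate progenitors (1 and 4 UMI), against 224 and 265 CPM in plain progenitors. The log2 fold change was -5.39 ± 0.41 (adjusted p = 1.1e-10), the furthest from 0 among the 9 genes in this comparison. PAX6 had 20.7 and 13.7 CPM in floor plate progenitors and 159.7 and 155 CPM in plain progenitors, a log2 fold change of -2.94 ± 0.30 (adjusted p = 2.9e-08). SOX1 had 14.5 and 5.13 CPM (7 and 3 UMI) in floor plate progenitors and 54.1 and 77.7 CPM in plain progenitors, a log2 fold change of -2.53 ± 0.46 (adjusted p = 0.00014), and the log2 difference was -1.49 in replicate 1 alone and -3.19 in replicate 2 alone. The groups of these 3 genes lay far apart in both libraries. ZIC1 had 12.4 and 15.4 CPM in floor plate progenitors and 52.8 and 27.6 CPM in plain progenitors, a log2 fold change of -1.25 ± 0.44 (adjusted p = 0.037), and it was -1.64 in replicate 1 alone and -0.54 in replicate 2 alone.

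The SOXB1 pair therefore parted in these barcodes: SOX1 was lower, while SOX2 had 364 and 335 CPM in floor plate progenitors and 322 and 363 CPM in plain progenitors, which overlapped (log2 fold change 0.30 ± 0.18, adjusted p = 0.22). RFX4 had 435 and 484 CPM in floor plate progenitors and 591 and 486 CPM in plain progenitors without overlap in CPM (fitted 0.04 ± 0.19, adjusted p = 0.90), and total UMI as the only scaling turned its sign to -0.23 without a call. SOX21 had 16.6 and 20.5 CPM in floor plate progenitors and 34.0 and 38.2 CPM in plain progenitors (-0.67 ± 0.41, adjusted p = 0.23). NES had 983 and 895 CPM in floor plate progenitors and 759 and 794 CPM in plain progenitors, without overlap but short of the threshold (0.55 ± 0.21, adjusted p = 0.054), and it was called with RLE factors (0.59, adjusted p = 0.043). FABP7 had 103.5 and 83.9 CPM in floor plate progenitors and 54.1 and 48.7 CPM in plain progenitors, a log2 fold change of 1.12 ± 0.29 (adjusted p = 0.0053). The calls for ZIC1 and FABP7 were lost with DESeq2 (adjusted p = 0.22 and 0.081) and with 2 markers needed (0.35 and 0.14), and those for PAX3, PAX6 and SOX1 were kept under both.

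In shares of barcodes thinned to 2000 UMI each, PAX3 was seen in 1 of 61 and 0 of 70 floor plate progenitors, and a count of 0 among 70 allows a share of up to 4.29%. In plain progenitors it was seen in 28.6% of 147 and 36.4% of 140. Without thinning it was seen in 1 of 63 and 3 of 71 floor plate progenitors, against 42.7% and 46.3% of plain progenitors. SOX2 was seen in 45.9% and 47.1% of floor plate progenitors and in 49.0% and 46.4% of plain progenitors. Floor plate barcodes were deeper, with a median of 8480 and 8824 UMI against 4152 and 3991 in plain progenitors, and had more GFP transcript, at 5639 and 3772 CPM against 1465 and 1562 CPM. Other marker lists moved too. Progenitor markers, all 10 seen, summed to 2216 and 2611 CPM in floor plate and 4390 and 3843 CPM in plain progenitors. Collagen markers (8 or 9 of 10 seen) summed to 360.1 and 294 CPM in floor plate and 155 and 192 CPM in plain progenitors. Plasma protein markers (3 of 8 seen, with AFP and ALB at 0) summed to 339 and 394 CPM in floor plate and 75.4 and 82.9 CPM in plain progenitors, and neuron markers to 561 and 519 CPM against 468 and 394 CPM. The part of depth, GFP and these lists in the fitted differences was not tested. The contrast could not be fitted on thinned barcodes, where too few passed the gate.

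Roof plate progenitors (33 and 39 barcodes) had at least 3 of 8 markers such as LMX1A, MSX1 and the R-spondins. There SOX2 and NES were higher than in plain progenitors and PAX3 and SOX21 lower, in a comparison with 10.5% of all genes called, 7.52% higher and 2.98% lower. With total UMI as the only scaling 38.8% of called genes were higher in place of 71.6%, and the median log2 fold change over all genes was -0.26 in place of -0.05. SOX2 had 497 and 491 CPM in roof plate progenitors and 322 and 363 CPM in plain progenitors, without overlap, a log2 fold change of 0.73 ± 0.18 (adjusted p = 0.0087). NES had 908 and 1210.4 CPM in roof plate progenitors and 759 and 794 CPM in plain progenitors (0.66 ± 0.21, adjusted p = 0.044). With total UMI as the only scaling both calls were lost (0.52, adjusted p = 0.061, and 0.45, adjusted p = 0.14), and that of NES was lost with no replicate block (adjusted p = 0.0985). NES differed by 0.36 in replicate 1 alone and 0.81 in replicate 2 alone. PAX3 had 138 and 58.5 CPM in roof plate progenitors and 224 and 265 CPM in plain progenitors, a log2 fold change of -1.20 ± 0.26 (adjusted p = 0.0026), and the 2 roof plate libraries lay far apart: the log2 difference was -0.58 in replicate 1 alone and -1.93 in replicate 2 alone. SOX21 had 13.0 and 5.85 CPM in roof plate progenitors and 34.0 and 38.2 CPM in plain progenitors (-1.81 ± 0.59, adjusted p = 0.044), and differed by -1.13 in replicate 1 alone and -2.11 in replicate 2 alone. DESeq2 called SOX2, NES and PAX3 and gave no adjusted p for SOX21 (-1.80, unadjusted p = 0.042). With 2 markers needed all 4 calls were lost, and the log2 fold change of PAX3 was then -0.07. Neuron markers summed to 510.0 and 944 CPM in roof plate progenitors against 468 and 394 CPM in plain progenitors. Roof plate barcodes had a median of 6309 and 9407 UMI against 4152 and 3991 in plain progenitors. The part of either in these values was not tested.

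**Figure D3:**
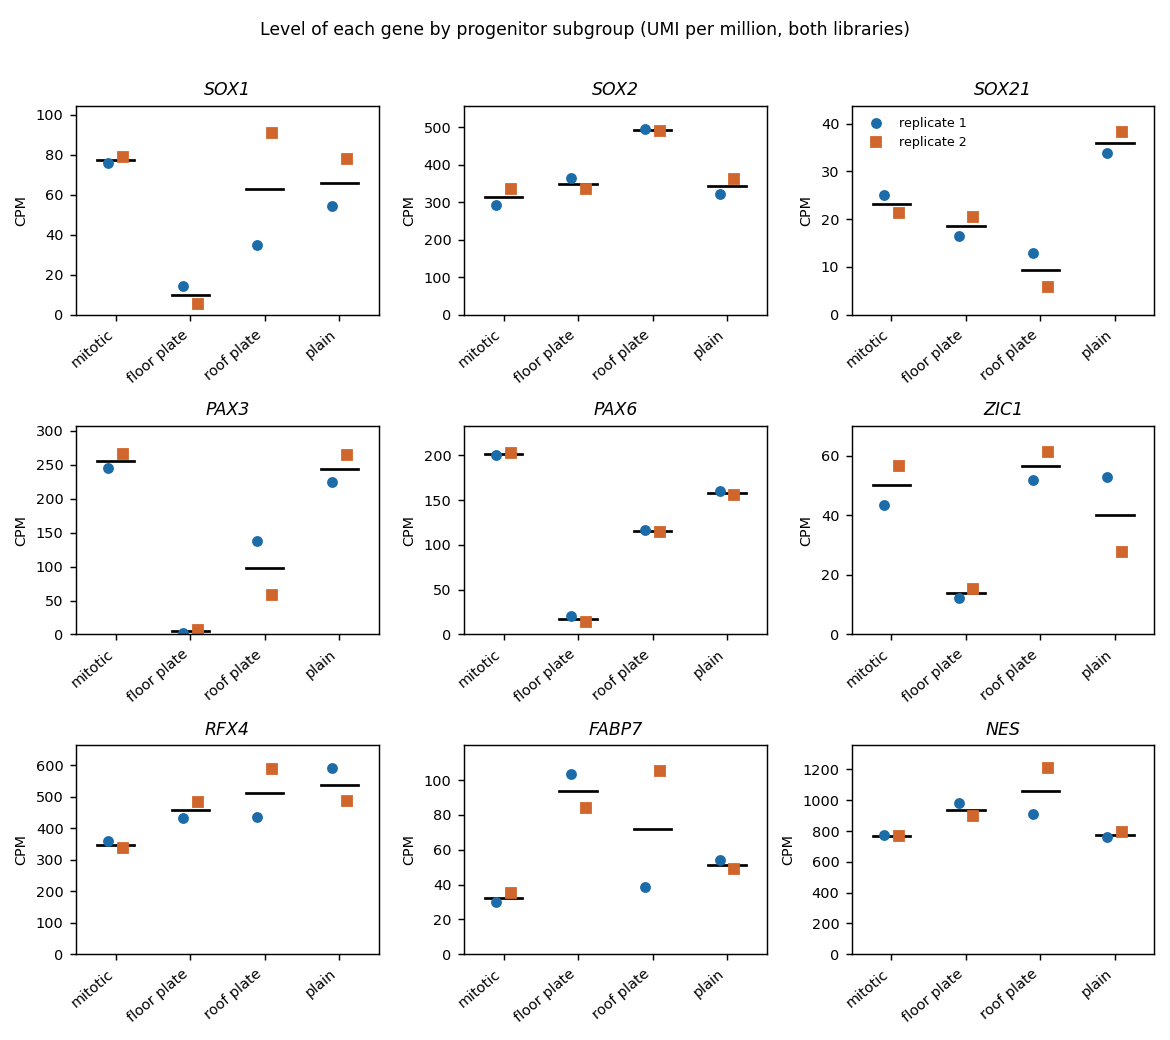
Level of each gene (CPM, y axis, from 0) in mitotic, floor plate, roof plate and plain progenitors, with circles for replicate 1, squares for replicate 2 and a black line for their mean. PAX3, PAX6 and SOX1 are lowest in floor plate progenitors, where the SOX2 values overlap those of plain progenitors and RFX4 is slightly lower in CPM, and SOX2 is highest in roof plate progenitors.

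Dividing progenitors carried all 9 genes. Mitotic progenitors (210 and 237 barcodes) had at least 3 of 8 markers such as TOP2A and MKI67. Of the 9 genes 0 passed edgeR's test against plain progenitors, where 2.9% of all genes were called, 2.35% higher and 0.551% lower, and 2 had an unadjusted p under 0.05 (RFX4 and FABP7). DESeq2 called 0 as well, with 1 at an unadjusted p under 0.05. RFX4 had 359.9 and 338 CPM in mitotic progenitors and 591 and 486 CPM in plain progenitors, without overlap (log2 fold change -0.63 ± 0.19, adjusted p = 0.064). It was called lower with 4 markers needed (-0.67, adjusted p = 0.030), with thinned barcodes (-0.54, adjusted p = 0.039) and with no filter on low counts (-0.61, adjusted p = 0.041). Thinned barcodes were grouped anew on their thinned counts, into 82 and 87 mitotic and 205 and 212 plain progenitors. FABP7 had 29.9 and 35.3 CPM in mitotic progenitors and 54.1 and 48.7 CPM in plain progenitors (-0.66 ± 0.30, adjusted p = 0.38), and was called lower with 4 markers needed (-1.17, adjusted p = 0.020). PAX3 had 245 and 266 CPM in mitotic progenitors and 224 and 265 CPM in plain progenitors, which overlapped (0.06 ± 0.18, adjusted p = 0.95). SOX2 had 293 and 336 CPM in mitotic progenitors and 322 and 363 CPM in plain progenitors (-0.13 ± 0.17, adjusted p = 0.87). Mitotic barcodes were deeper than plain ones, with a median of 5542 and 6312 UMI.

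Along the body axis none of the 9 genes was called. HOX-positive progenitors numbered 44 and 62 barcodes, with 2 or more HOX genes, which mark hindbrain and spinal cord, and no OTX2 UMI. OTX2-positive progenitors numbered 24 and 29 barcodes, with no HOX UMI, and OTX2 is a gene of forebrain and midbrain. Of the 9 genes 0 were called by edgeR and 0 by DESeq2, and 0 had an unadjusted p under 0.05 in either, while 1.67% of all 8108 genes tested were called by edgeR, 0.617% higher and 1.05% lower. ZIC1 had 29.1 and 29.9 CPM in HOX-positive and 43.2 and 74.3 CPM in OTX2-positive progenitors, without overlap (log2 fold change -0.95 ± 0.51, adjusted p = 0.49). SOX2 had 356 and 501 CPM in HOX-positive and 315 and 497 CPM in OTX2-positive progenitors (0.15 ± 0.23, adjusted p = 0.90), where the libraries differed more than the groups. The SE of the 9 genes ran from 0.20 to 0.70 on the log2 scale, and a p that misses the threshold does not show equal levels. The groups differed in more than HOX genes and OTX2. Roof plate markers summed to 364 and 269 CPM in HOX-positive and 1555 and 1996 CPM in OTX2-positive progenitors, with 5 or 6 of the 8 markers seen in each. Mitotic markers, all 8 seen in each, summed to 1276 and 1291 CPM in HOX-positive and 771 and 817 CPM in OTX2-positive progenitors. Position along the axis cannot be told apart from these lists here, and their part in the values was not tested.

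**Figure D4:**
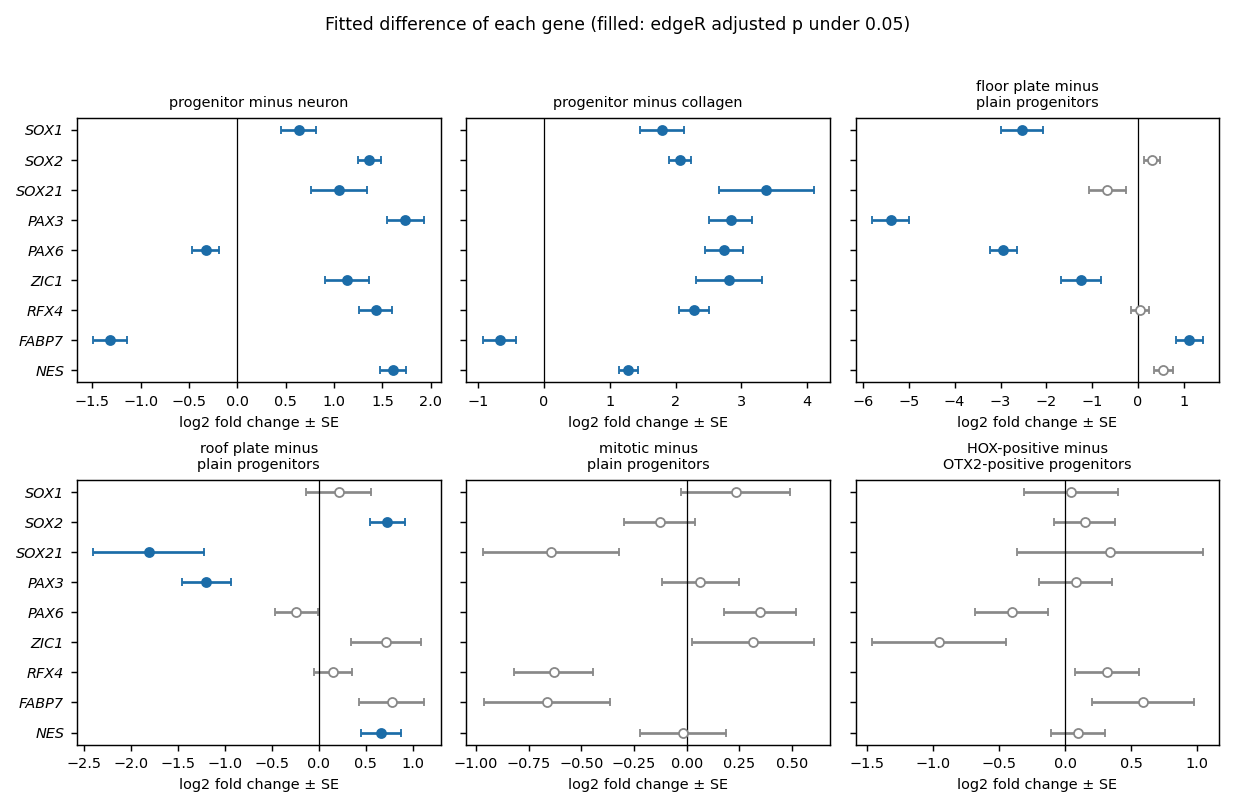
Fitted log2 fold change ± SE (x axis, a different range in each panel) of the 9 genes in 6 comparisons, filled where edgeR's adjusted p is under 0.05. The floor plate panel shows PAX3, PAX6 and SOX1 far below 0 with SOX2 and RFX4 near 0, and the mitotic and HOX panels hold no filled point.

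Within progenitor and within neuron barcodes, fewer of the 9 genes were seen per barcode after thinning. Between these groups the number did not follow depth, as the deeper neuron barcodes held fewer. Thinned to 2000 UMI, progenitor barcodes (613 and 692, after 42 and 37 shallower ones were left out) had a mean of 2.42 and 2.44 of the 9 genes, against 1.23 and 1.11 in neuron barcodes. Without thinning the mean was 3.83 and 4.03 in progenitor and 2.31 and 2.31 in neuron barcodes, and 33.4% and 36.6% of progenitor barcodes held 5 or more of the 9. Median depth before thinning was 5411 and 6147 UMI in progenitor and 6354.5 and 7518 UMI in neuron barcodes. NES was seen in 71.3% (exact 95% interval 67.5 to 74.8) and 69.2% (65.6 to 72.6) of progenitor barcodes and in 36.3% and 24.3% of neuron barcodes. SOX2 was seen in 44.5% (40.6 to 48.6) and 44.4% (40.6 to 48.2) of progenitor barcodes and in 17.3% and 15.6% of neuron barcodes. Both shares were higher in progenitors of both libraries. PAX3 was seen in 25.4% and 23.7%, and PAX6 in 25.0% and 21.5%, of progenitor barcodes. FABP7 was seen in 5.38% and 9.10% of progenitor barcodes and 13.7% and 21.8% of neuron barcodes. Erythroid and trophoblast barcodes, which should lack these genes, were pooled to 18 and 33 barcodes with a median of 22281 and 18738 UMI before thinning. In them 6 of the 9 genes were seen in none after thinning, SOX2 and FABP7 in 0% and 3.13%, and NES in 5.88% and 6.25%. Without thinning, SOX2 was seen in 65.3% and 75.2% of progenitor barcodes and 33.1% and 32.6% of neuron barcodes. Intervals and limits cover counting error only.

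Pairs of genes were then compared in the thinned progenitor barcodes. Of 36 pairs, 13 had an odds ratio above 1 in both libraries, 10 below 1 in both, and 13 lay on different sides. The split moved with thinning, with 18 above 1 and 6 below 1 at 4000 UMI and 31 and 4 without thinning. At 4000 UMI 214 and 194 shallower progenitor barcodes were left out, against 42 and 37 at 2000 UMI, so depth and barcodes changed together. The odds ratios are descriptions with no test, as barcodes of 1 library share its depth and free RNA. PAX3 and PAX6 went together: PAX6 was seen in 38.5% and 37.2% of barcodes with PAX3, against 20.4% and 16.7% of barcodes without it, an odds ratio of 2.44 and 2.96. In all, 60 and 61 barcodes held both, 9.79% and 8.82% of those thinned. Without floor plate and roof plate progenitors, a choice made after seeing the data, the mean odds ratio was 2.21. SOX21 and PAX6 had odds ratios of 1.87 and 2.96, SOX1 and PAX3 of 1.84 and 1.90, and ZIC1 and PAX6 of 2.26 and 1.41. SOX21 was rare: it was seen in 8 of 93 and 4 of 88 barcodes with PAX6 but not PAX3. Among barcodes with both PAX genes it was seen in 5 of 60 and 6 of 61. ZIC1 and RFX4 were seen together less often, at 0.71 and 0.61, as were PAX3 and FABP7, at 0.68 in each. FABP7 was seen in 3 of 96 and 4 of 103 barcodes with PAX3 but not PAX6, and in 3 of 60 and 7 of 61 with both. Counts this small leave the odds ratios of SOX21 and FABP7 uncertain, and no interval is given for them. SOX2 and PAX3, each common in progenitors, had odds ratios of 1.02 and 0.83, on either side of 1. Only 1 and 6 doublets were called, 0.168% of kept barcodes, and no others were removed. Without the called ones 14 pairs were above 1 in both libraries.

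**Figure D5:**
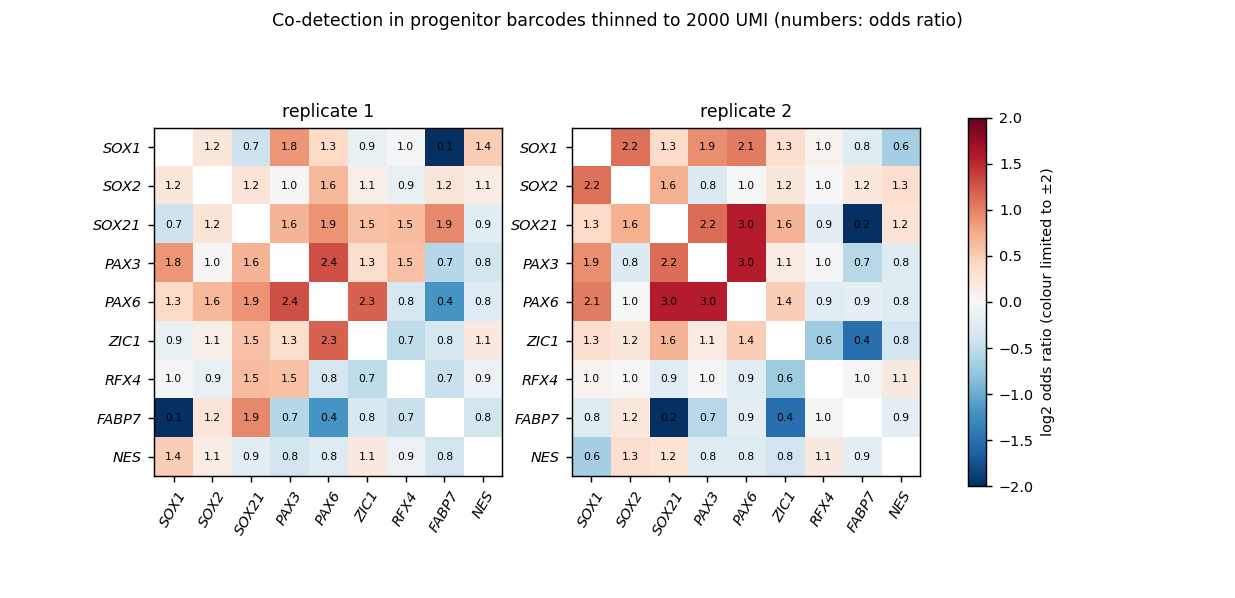
Odds ratio of co-detection for each of the 36 pairs of genes in progenitor barcodes thinned to 2000 UMI, with replicate 1 on the left and replicate 2 on the right (red above 1, blue below 1, colour on a log2 scale). PAX3 with PAX6 and SOX21 with PAX6 are red in both libraries, the SOX21 pair from few barcodes, and the FABP7 column is mostly blue.

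Across 16 sums (groups and progenitor subgroups of each library) the 9 genes fell into sets by Pearson r of log2(CPM + 1), which is a description since sums share libraries and some barcodes. SOX2 went with NES (0.96) and RFX4 (0.95), PAX6 with SOX1 (0.92) and PAX3 (0.90), and FABP7 was negative with each of the other 8. Among 9572 other genes the closest to SOX2 were IKZF2, TMEM132C, LRP4 and WWC1 (r from 0.96 to 0.97). The closest to PAX3 were LIN28A, HHIP, ATXN1L and TDRKH (0.93 to 0.95), and the closest to PAX6 were SHC3, HS3ST4, FGD4 and MCF2 (0.95 to 0.96). HHIP, which binds hedgehog proteins, averaged 15.1 CPM in floor plate, 132 CPM in roof plate and 182 CPM in plain progenitors. It was picked for its likeness to PAX3 over these same sums, so a like order follows from the choice.

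Of 50 relatives of the 9 genes and other neural progenitor genes, 47 were in the table. Against neuron barcodes 38 were tested, and 16 were higher and 13 lower in progenitors. The SOXC genes, which act in young neurons in chick and mouse, were lower: SOX4 had 195 and 165 CPM in progenitor barcodes and 713 and 786 CPM in neuron barcodes (log2 fold change -2.28 ± 0.13, adjusted p = 1.4e-17), and SOX11 had 246 and 232 CPM against 692 and 691 CPM (-1.75 ± 0.12, adjusted p = 1.2e-15). ZIC2, ZIC4, ZIC5 and the hedgehog effector GLI3 were higher, as was SOX6. In floor plate against plain progenitors 2 of 30 were higher and 10 lower. SOX6 had 447 and 613 CPM in floor plate progenitors and 277 and 154 CPM in plain progenitors (1.59 ± 0.22, adjusted p = 9.1e-06), and VIM, which encodes the filament protein vimentin, was the other. SOX5, ZIC4, IRX3, IRX5 and GLI3 were among those lower. In roof plate against plain progenitors 5 passed, all of them higher, with ZIC2, ZIC4 and ZIC5 among them: ZIC2 had 272 and 251 CPM in roof plate progenitors and 147 and 153 CPM in plain progenitors (1.00 ± 0.20, adjusted p = 0.00095). The calls of the genes named here held with RLE factors and with total UMI as the only scaling. Over all genes tested the shares called were 54.6% against neurons, 24.5% for floor plate and 10.5% for roof plate.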

How the data were processed

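The authors deposited raw UMI counts per gene and barcode, and per the submitters' processing notes used the build bosTau9, with Cell Ranger, Seurat 4.3.0 and R 4.1.2 as tools. The limits behind the deposited barcodes are not given in the sources used here. Barcodes with at least 500 genes, 1000 UMI and at most 15% mitochondrial counts were kept (4159 of 4437). Groups needed 3 markers of a list and 2 more than any other. Counts were summed per library and group of at least 20 barcodes per library and fitted with edgeR 4.0.16 in R 4.3.3 (TMM, filterByExpr, robust quasi-likelihood), with library as a term, and adjusted over all genes tested at a threshold of 0.05. Both arms of every comparison come from the same 2 libraries, so the library term pairs them by construction. Standard errors were taken as the absolute log2 fold change over the square root of F. DESeq2 1.42.0, other scalings, no filter on low counts, 2 or 4 markers, thinned barcodes, all deposited barcodes, no library term and leaving out a library or the clusters of 1 library were alternatives. The first comparison of each fit was also run on counts simulated from that fit's own pooled means and spread. That is a check of the code, and it cannot speak to calls that depended on the scaling or on 1 library. Fits on thinned barcodes grouped them anew on the thinned counts. Shares of barcodes were counted after drawing 2000 UMI from each barcode, in groups set before thinning, with exact binomial 95% intervals. Doublets were called with Scrublet and kept. CPM was computed from summed counts, so CPM ratios can differ from TMM-scaled fold changes.

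Erythroid, trophoblast, cardiac and crest barcodes were too few to be fitted. No progenitor barcode passed the plasma protein gate, so that comparison has no value. A split of the neuron barcodes is not reported here. Scanpy 1.11.5 clusters, made without the 9 genes, served only as an alternative grouping. All 9 genes are named in every comparison, with the 4 genes most like SOX2, PAX3 and PAX6 (at least 20 CPM in a group, pseudocount 1) and examples of the relatives. The genes and lists were chosen with earlier results of these data known.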

Additional observations from a re-analysis of the deposited data

How the results depend on the processing

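Of 28 called values of single genes, all 28 kept their call with RLE factors, no filter on low counts, all deposited barcodes and without clusters of 1 library, and 25 with no replicate block, 21 with 2 markers needed, 22 of 24 with 4, 13 of 19 with thinned barcodes, 18 of 27 with DESeq2 and 24 with total UMI as the only scaling (chosen after seeing the data). None of 56 values from 1 library alone turned sign. Counts of calls without a replicate have no residual degrees of freedom. Roof plate and axis comparisons with 4 markers needed, and floor plate, roof plate and axis comparisons on thinned barcodes, had too few barcodes and were not run. The cause of the changes below was not tested.

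Members called against neurons numbered 4 with DESeq2. Against progenitor-and-neuron barcodes they numbered 0 with no replicate block, DESeq2, 2 markers needed and thinned barcodes. For mitotic progenitors they numbered 1 with no filter, 2 with 4 markers and 1 thinned. For floor plate they numbered 3 with DESeq2 and 3 with 2 markers, and for roof plate 0 with 2 markers and 2 with total UMI.

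All genes called against neurons numbered 6709, with DESeq2 4234 and thinned 3681. Against progenitor-and-neuron barcodes they numbered 812, with no replicate block 57, DESeq2 322, 2 markers 415, 4 markers 1278 and thinned 217. Against collagen they numbered 6525, thinned 2952. With DESeq2 the mitotic count was 88, floor plate 946, roof plate 397 and axis 26, and with 2 markers floor plate 1107 and roof plate 192. The axis count with no replicate block was 45.

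Values that turned sign (log2): against progenitor-and-neuron barcodes, SOX1 -0.073, PAX3 0.21 and NES -0.066 with 4 markers, PAX3 0.019 with no filter, PAX6 0.13 and RFX4 0.63 thinned, PAX3 0.094 and RFX4 0.051 with total UMI; against collagen, FABP7 0.018 with total UMI; mitotic, SOX1 -0.057 and PAX3 -0.20 thinned, PAX3 -0.049 with 4 markers, NES 0.00124 with no filter; floor plate, RFX4 -0.23 with total UMI; roof plate, SOX1 -0.00703 and RFX4 -0.064 with total UMI; axis, SOX1 -0.43 and SOX2 -0.089 with 2 markers, SOX1 -0.029 with total UMI. Only FABP7 among these had been called. For the axis with 2 markers needed, a single HOX gene was enough, in place of 2 or more. That gave 216 and 266 HOX-positive progenitors, in place of 44 and 62.

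Detection in progenitors followed depth. The values here are means of the 2 libraries, the first at 4000 UMI and the second without thinning. SOX1 was seen in 18.4% and 24.4%, SOX2 in 65.7% and 70.3%, SOX21 in 8.37% and 11.03%, PAX3 in 35.1% and 40.1%, PAX6 in 35.3% and 43.9%, ZIC1 in 15.3% and 21.6%, RFX4 in 68.8% and 74.7%, FABP7 in 14.1% and 18.6%, and NES in 86.9% and 88.5%. Pairs above 1 in both libraries numbered 31 without thinning and 24 in all barcodes of no non-neural group. The PAX3 and PAX6 odds ratio, as the mean of the 2 libraries, was 3.76 without thinning and 2.21 without floor plate and roof plate progenitors.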

Other observations

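GFP transcript was in the deposited counts, and the labels do not say what carries it. In thinned progenitor barcodes with 2 or more GFP UMI (260 and 330 barcodes) PAX3 stood at 113 and 147 CPM, against 273 and 283 CPM in those with 0 (222 and 224 barcodes). SOX2 stood at 412 and 403 CPM with GFP and 279 and 217 CPM without it, and PAX6 at 117 and 111 CPM with GFP and 185 and 149.6 CPM without it. None of these 3 genes overlapped between the classes. NES and FABP7 were also higher with GFP, and ZIC1 and RFX4 lower, again without overlap. NES stood at 1040 and 911 CPM with GFP and 637 and 714 CPM without it. RFX4 stood at 348 and 439 CPM with GFP and 532 and 478 CPM without it. SOX1 and SOX21 overlapped. How many of all genes separate in this way was not tested, so the separation by itself sets no gene apart. The classes differed in depth, with a median of 6828 and 8046 UMI before thinning in barcodes with GFP and 4816 and 5002 in those without. Floor plate progenitors, which had little PAX3 and PAX6, also had more GFP than plain progenitors, and the part of either in the class values was not tested.

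In clusters made without the 9 genes, PAX3 ranged widely among progenitor clusters. It stood at 527 and 516 CPM in a cluster led by ERBB4, THSD4 and GABRG3, and at 3.38 and 1.04 CPM in one led by SLITRK6 and SHH. It stood at 4.95 and 1.16 CPM in a cluster led by COL25A1 and EDIL3. The single barcode that passed the neural crest gate, from replicate 2, had 7570 UMI. It held 1321 CPM of PAX3, 264 CPM of SOX2 and 528 CPM of NES. It held 0 CPM of PAX6, RFX4, SOX1, SOX21, ZIC1 and FABP7, and at that depth a 0 in 1 barcode does not show absence.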
